A study of Mus musculus with 4 samples.

Results

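The antibody light-chain genes Igkc, Iglc1, Iglc2, Iglc3 and Iglv1 were followed through single colonic leukocytes of mice with colitis. They are 5 of the 32285 genes in the count matrices and were taken by symbol. They had been picked because the level of Iglc1 in macrophages differed between samples, so that difference is given below as a description only. The cells were CD45+ lamina propria cells, taken with magnetic beads from mice on a C57BL/6 background. The mice had drunk water with 2% dextran sulfate sodium (DSS), a polymer that damages the lining of the colon, over 7 days, and their colons were taken on day 8. Each of the 4 samples mixed 3 mice of the same group, so differences between mice within a sample cannot be seen. The study used AhR-null mice, which lack the aryl hydrocarbon receptor in all cells, and wild-type littermates. The labels number the samples and give the age as 10 weeks (8 weeks in the paper) but give no genotype. Values therefore stand sample by sample, without a comparison of genotypes and without p-values. No sample from mice without DSS was analysed here.

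Samples 1 to 4 held 11425, 13730, 11581 and 8493 cells, with 72509408 to 135516016 unique molecular identifiers (UMIs, each a single captured transcript molecule). After filters on detected genes, mitochondrial UMIs and doublets, 10020, 11824, 10167 and 7539 cells remained, with a median of 5480.5 to 6980 UMIs. Ptprc, which encodes CD45, had a UMI in 92.2 to 95.6% of them. Pairs of samples shared 23 to 49 cell barcodes, at most 0.423% of the smaller sample, and every pair differed by more than sampling noise. Cells that were not leukocytes were also present, with 782 fibroblast-like, 336 epithelial-like and 215 endothelial-like cells in all.

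An antibody is built of heavy and light chains. A light chain is either κ, from a locus with a single constant gene, Igkc, or λ, from a locus whose constant genes include Iglc1, Iglc2 and Iglc3 and which holds few variable genes, among them Iglv1. A developing B cell usually rearranges κ first and λ only where κ fails, and a mature cell usually carries a single light-chain type, so that κ and λ exclude each other cell by cell. In the mouse, κ antibodies far outnumber λ antibodies. Plasma cells of the gut wall secrete mostly IgA, which the epithelium carries into the lumen, and antibody transcripts make up a large part of their RNA.

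The constant genes are shown because each read counted for them has to be told from its neighbours. Coordinates are on GRCm38 and sequences are those of GENCODE M21 transcripts, with the coding bounds of the constant genes from RefSeq. Igkc (ENSMUSG00000076609) is a single exon at chr6:70726435-70726966 on the plus strand. The λ genes are on the minus strand of chromosome 16, with the constant exons of Iglc1 (ENSMUSG00000105906) at chr16:19061618-19062071, Iglc3 (ENSMUSG00000105547) at chr16:19065230-19065681 and Iglc2 (ENSMUSG00000076937) at chr16:19198396-19198853. Over the coding part, Iglc2 and Iglc3 were 96.5% identical, with 11 of 317 bases differing and the longest identical run at 79 bases. Iglc1 was 73.2% identical to Iglc2 and 73.8% to Iglc3, and Igkc was 54.9% identical to Iglc2. How reads shared by Iglc2 and Iglc3 were split is not given in the sources used here, so the split between this pair is uncertain. In plasma cells counted mostly as Iglc2 (below), Iglc3 gave at most 3.19 of 1000 light-chain constant UMIs. In those counted mostly as Iglc3, Iglc2 gave at most 42.0. Iglc1 and Igkc are far from both genes in sequence. The lines give the first 150 coding bases, at chr6:70726435-70726584 for Igkc, chr16:19061922-19062071 for Iglc1, chr16:19198703-19198852 for Iglc2 and chr16:19065532-19065681 for Iglc3, 5′ to 3′ on the coding strand. Capitals mark bases of Iglc1 and Iglc3 that differ from Iglc2, 34 in Iglc1 and 7 in Iglc3.
Igkc: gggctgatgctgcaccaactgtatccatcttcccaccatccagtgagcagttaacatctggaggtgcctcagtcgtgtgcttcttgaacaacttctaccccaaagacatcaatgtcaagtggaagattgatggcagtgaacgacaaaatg
Iglc1: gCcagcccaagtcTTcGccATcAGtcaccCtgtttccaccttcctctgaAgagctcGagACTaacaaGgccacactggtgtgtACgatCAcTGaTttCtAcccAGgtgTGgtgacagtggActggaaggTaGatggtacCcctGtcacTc
Iglc2: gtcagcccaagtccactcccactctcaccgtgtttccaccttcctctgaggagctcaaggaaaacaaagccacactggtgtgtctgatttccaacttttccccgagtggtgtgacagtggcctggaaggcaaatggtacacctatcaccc
Iglc3: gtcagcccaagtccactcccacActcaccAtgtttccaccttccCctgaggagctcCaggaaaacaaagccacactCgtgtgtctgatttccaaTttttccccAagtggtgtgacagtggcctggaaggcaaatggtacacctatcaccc

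Iglv1 (ENSMUSG00000076934) has 2 exons at chr16:19085017-19085500 and lies nearest to Iglc3 and Iglc1. Its relative Iglv2, at chr16:19260401-19260859, lies beyond Iglc2 and was 96.9% identical to it, with 11 of 351 bases differing and the longest identical run at 104 bases. The last 120 coding bases of both, at chr16:19085017-19085136 and chr16:19260401-19260520 on the minus strand, are shown since UMIs of the pair are compared below, with capitals for the 4 bases of Iglv1 that differ from Iglv2.
Iglv1: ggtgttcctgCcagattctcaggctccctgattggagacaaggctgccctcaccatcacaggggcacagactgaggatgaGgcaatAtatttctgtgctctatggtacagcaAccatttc
Iglv2: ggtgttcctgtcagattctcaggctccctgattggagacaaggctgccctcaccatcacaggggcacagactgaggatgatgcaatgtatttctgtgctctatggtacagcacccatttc

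Plasma cells were taken as cells with at least 20 UMIs of Jchain, the chain that joins IgA into dimers, and at least 5 of Xbp1, a regulator of secretion. This gate held 60, 337, 89 and 49 cells in samples 1 to 4, or 0.599, 2.85, 0.875 and 0.650% of the kept cells. Most lay in a cluster with plasma cell markers, which held 53, 279, 78 and 40 of them although immunoglobulin genes and Jchain had been left out of the clustering. Of 12 plasma cell markers that the gate did not use, 9 were higher in gated cells than in B cell-like and monocyte-macrophage-like cells in all 4 samples. The exceptions were Irf4, higher in B cells, Prdm1, higher in macrophages, and Sdc1 in sample 3, at a level of 164 CPM (UMIs of the gene per 1000000 UMIs of the class) against 176 CPM. Among 14 B cell markers, 13 were lower in gated cells than in B cells in every sample, the exception being Cd79b in sample 4, at 107 CPM against 85.8 CPM. The UMIs that CPM divides by include those of immunoglobulin genes, a median of 49.9, 47.5, 48.7 and 37.2% of a gated cell's UMIs. This lowers the CPM of other genes in gated cells, and both counts of markers and their exceptions were not tested without immunoglobulin UMIs. Cells just inside the gate, with under 30 Jchain or under 8 Xbp1 UMIs, numbered 2, 39, 5 and 6 and had a median of 2573.5, 995, 1738 and 1246.5 light-chain constant UMIs, and cells just outside it, with at least 10 Jchain and 3 Xbp1 UMIs, numbered 1, 68, 7 and 3 and had 168, 132, 1127 and 411.

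Of the 535 gated plasma cells, all but 4 used nearly only κ or nearly only λ. A cell was called κ or λ where that type held at least 90% of its constant UMIs, and 535 of 535 gated cells had the 10 constant UMIs a call required. The median cell held 7731, 4741, 4194 and 3855 constant UMIs in samples 1 to 4, and single cells ranged from 62 to 21059. κ cells numbered 52, 313, 78 and 45 and λ cells 8, 20, 11 and 4. The remaining 4 cells were all in sample 2 and had λ at 11.5, 11.7, 20.3 and 21.0% of their constant UMIs. Those at 11.5 and 20.3% lay in the plasma cell cluster. Those at 11.7 and 21.0% lay in a mixed and an epithelial-like cluster, with 81268 and 120594 UMIs in all. They held only 31 and 23 Jchain, 6 and 23 Xbp1 and 350 and 62 constant UMIs. Whether these deep cells are plasma cells was not tested. Only sample 2, with 14 cells, and sample 4, with 2, had cells between 5 and 95% λ. UMIs of both chains can come from a droplet with 2 cells as well as from 1 cell, which cannot be told apart here. The doublet step had removed 8, 169, 10 and 1 gated cells.

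**Figure D1:**
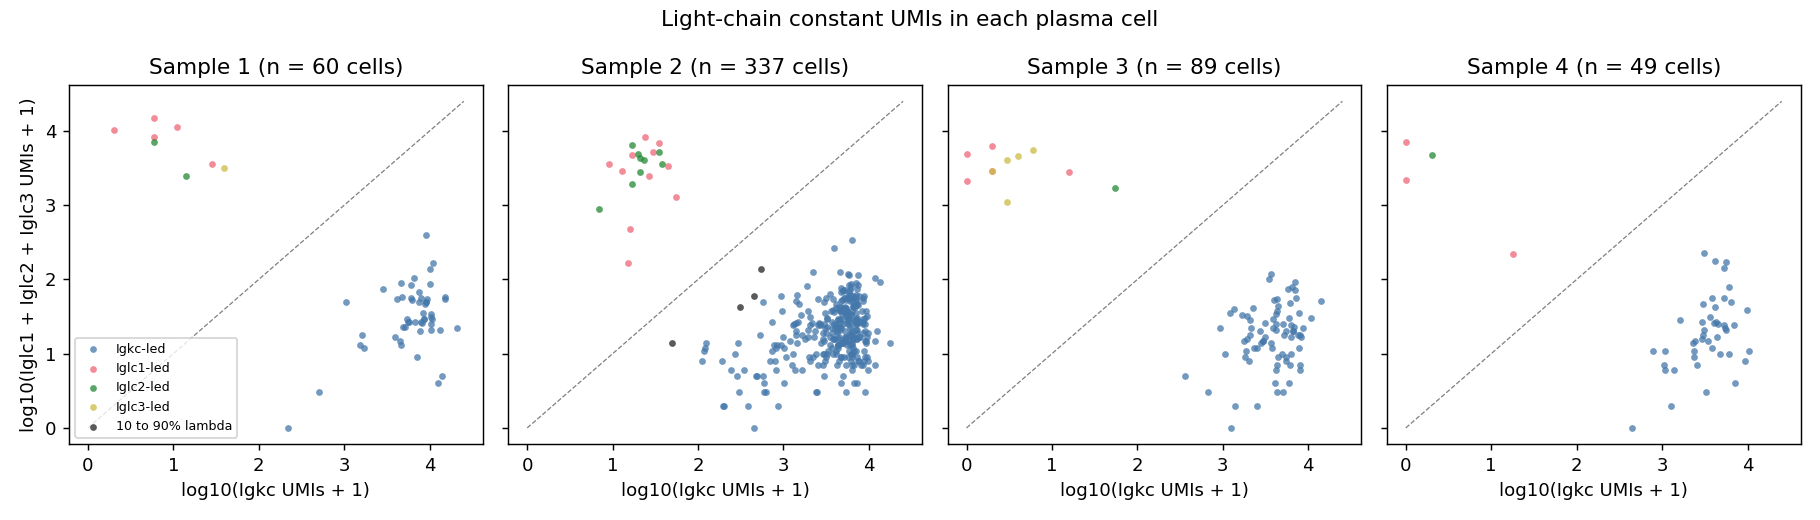
Light-chain constant UMIs of each gated plasma cell, with Igkc on the x axis and the sum of Iglc1, Iglc2 and Iglc3 on the y axis, both as log10 after adding 1, in a panel per sample and coloured by the leading constant gene. The dashed line marks equal UMIs, most cells lie far to either side of it, and the 4 cells with 10 to 90% λ are in sample 2.

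λ cells made up 13.3, 6.01, 12.4 and 8.16% of the called plasma cells in samples 1 to 4. The exact 95% binomial intervals were 5.94 to 24.6%, 3.71 to 9.12%, 6.33 to 21.0% and 2.27 to 19.6%. Each overlapped the others, which is not a test of a difference, and no test between samples was run. By UMIs rather than cells, λ constants were 13.9, 5.25, 10.4 and 7.97% of the light-chain constant UMIs of plasma cells. These shares too rest on 8, 20, 11 and 4 λ cells, and the order of the samples was the same as that by cells.

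Antibody transcripts dominated these cells. Igkc stood at 239148, 197225, 178533 and 147531 CPM in the plasma cells of samples 1 to 4. Light-chain constants together took a median of 29.0, 25.8, 23.1 and 19.2% of a plasma cell's UMIs, and all immunoglobulin genes 49.9, 47.5, 48.7 and 37.2%. In CPM, Iglc1 was at 29808, 5603, 9824 and 8280, Iglc2 at 6654, 5153, 1532 and 4218, and Iglc3 at 2089, 175, 9340 and 287. Igkc was the highest of the constants in all 4 samples, whereas the third place changed hands between Iglc2 and Iglc3.

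Within λ, the makeup differed between samples. Iglc1 held 77.3, 51.3, 47.5 and 64.8% of the λ constant UMIs of plasma cells and Iglc2 held 17.3, 47.1, 7.40 and 33.0%. Iglc3 held 45.1% in sample 3 and 5.42, 1.61 and 2.25% in samples 1, 2 and 4. The cells behind these shares were few. Iglc1 led in 5, 11, 5 and 3 λ cells, Iglc2 in 2, 9, 1 and 1, and Iglc3 in 1, 0, 5 and 0. The Iglc3 share of sample 3 thus stands beside 5 Iglc3-led cells from a mixture of 3 mice, and whether they share an ancestor was not tested.

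**Figure D2:**
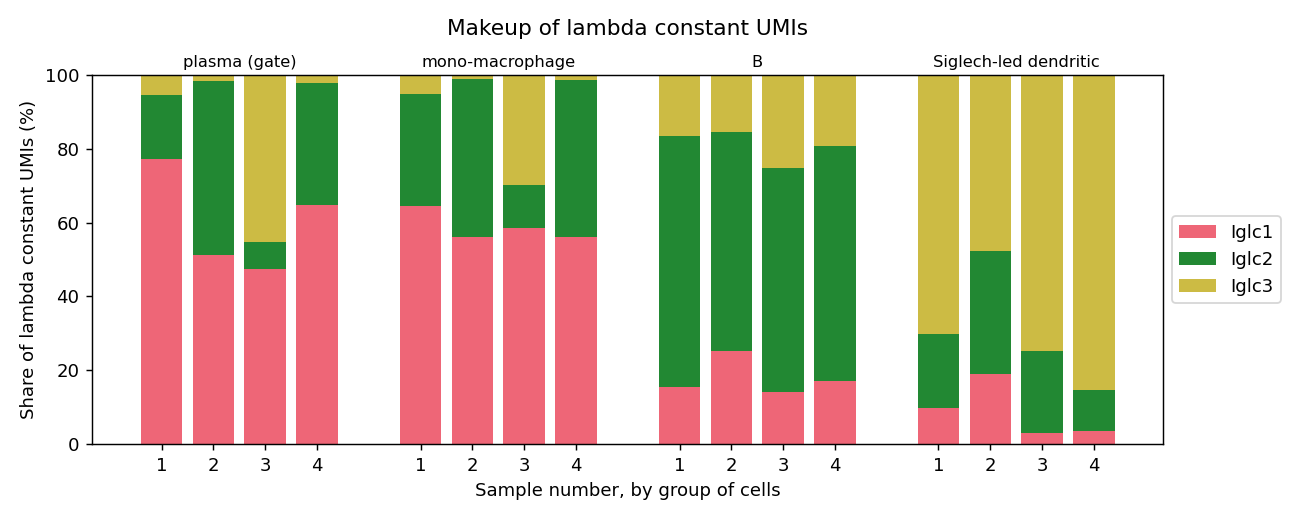
Percent of λ constant UMIs from Iglc1, Iglc2 and Iglc3 (y axis) in gated plasma cells, monocyte-macrophage-like cells, B cell-like cells and the Siglech-led dendritic cell-like cluster of each sample (x axis). Iglc1 was 47.5 to 77.3% in plasma cells, Iglc2 59.2 to 67.9% in B cells and Iglc3 47.7 to 85.2% in the Siglech-led cluster.

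Iglv1, a λ variable gene, was counted in most κ plasma cells. It had a UMI in 49 of 52, 290 of 313, 62 of 78 and 36 of 45 κ cells of samples 1 to 4, a share of 79.5 to 94.2%. The median κ cell held 35.5, 16, 8 and 10 Iglv1 UMIs, and pooled over samples the median was 15 in Igkc-led cells against 24.5, 43 and 21.5 in cells led by Iglc1, Iglc2 and Iglc3. So Iglv1 did not separate κ cells from λ cells, which had been called by the constants themselves.

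The same κ cells held few κ variable UMIs. Over them, Iglv1 summed to 4048, 9440, 1744 and 1437 UMIs, while all 160 Igkv genes together summed to 999, 5340, 1396 and 858. More Iglv1 than Igkv UMIs were counted in 39, 168, 33 and 16 κ cells. A κ transcript joins a variable to the constant segment, and Igkv UMIs were 0.254, 0.358, 0.398 and 0.472 per 100 Igkc UMIs. How reads fall over the segments of a transcript was not tested, so low Igkv counts do not show a lack of κ variable RNA. Per 1000 constant UMIs, Iglv1 was at 10.2, 6.30, 4.94 and 7.84 in κ plasma cells but at 0.356, 1.85, 0 and 0 in B cells, which held 15, 75, 0 and 0 Iglv1 UMIs in all. Outside the plasma cells its level was low, at 0 to 5.40 CPM in monocyte-macrophage-like cells against 1024 to 3032 CPM in plasma cells. The origin of the Iglv1 UMIs in κ plasma cells was not tested.

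Of the other λ variable genes in the files, Iglv2 had another pattern, while Iglv3 was spread over κ and λ cells as Iglv1 was. Iglv2 had at least 2 UMIs in each of the 13 Iglc2-led plasma cells, with a median of 10 and a maximum of 37. It was seen in 1 of 24 Iglc1-led cells, 0 of 6 Iglc3-led cells and 32 of 488 κ cells, with at most 2 UMIs in a κ cell. Iglv2 lies on the Iglc2 side of the locus, away from Iglc1 and Iglc3, and apart from 1 Iglc1-led cell, the λ cells that carried it were Iglc2-led. Iglv3 had a UMI in 232 of 488 κ cells, with at most 9. It had a UMI in 9 of 24, 7 of 13 and 1 of 6 cells led by Iglc1, Iglc2 and Iglc3.

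**Figure D3:**
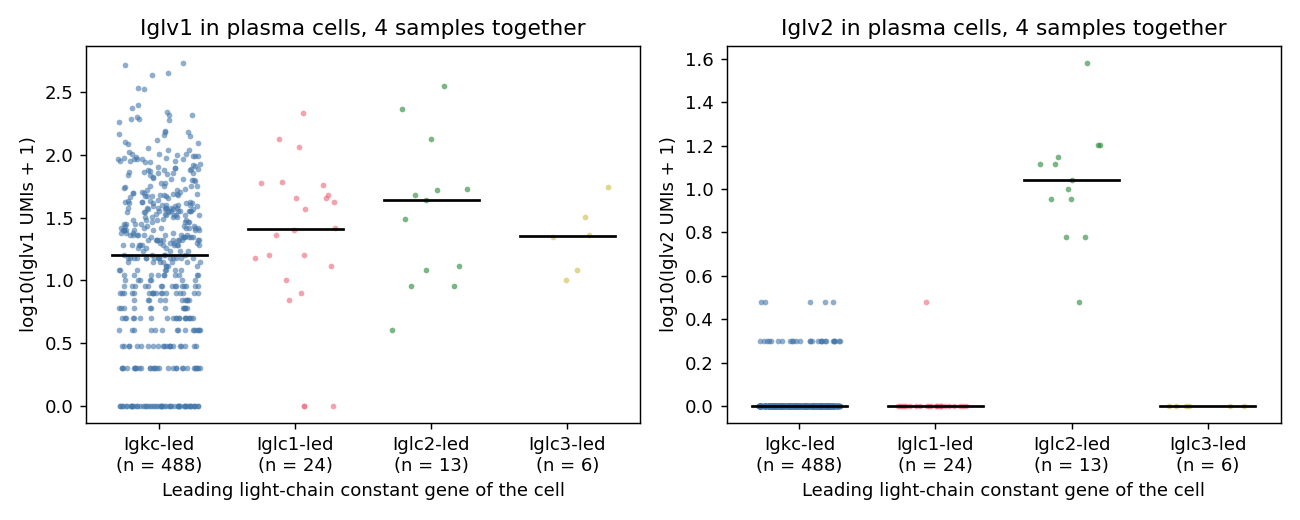
UMIs of Iglv1 (left) and Iglv2 (right), as log10 after adding 1 on the y axis, in gated plasma cells grouped by their leading constant gene on the x axis, with a point per cell over all 4 samples and a line at the median. Iglv1 is present in all groups, with medians of 15 to 43 UMIs, while Iglv2 is at 2 to 37 UMIs in the Iglc2-led cells.

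Where Igkv UMIs were present, a single gene usually held them. Among κ cells with at least 5 Igkv UMIs (47, 244, 61 and 39), the leading gene held a median of 96.7, 100, 100 and 94.7%. It held at least 80% in 36, 206, 56 and 27 cells. The cells spread over 22, 55, 31 and 20 different leading genes. Igkv10-96 led most often in sample 1, in 10 cells, followed by Igkv8-24 in 5 and Igkv1-110 in 4, and it was also first in sample 2, in 20 cells, followed by Igkv12-41 in 15 and Igkv5-43 in 13. Sample 3 was led by Igkv3-4 in 6 cells, Igkv12-44 in 5 and Igkv19-93 in 4. In sample 4 the first were Igkv1-110 in 7, Igkv6-15 in 6 and Igkv2-112 in 4. No gene led more than 10 of 47 cells in sample 1 or 20 of 244 in sample 2, so κ plasma cells used many variable genes.

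Heavy chains were read in the same cells. Igha, the constant gene of IgA, led in all 8, 20, 11 and 4 λ cells. Among κ cells it led in 48 of 52, 299 of 313, 62 of 78 and 31 of 45, and the others were led mainly by IgG genes. Ighg2c led 1, 1, 9 and 9 κ cells and Ighg2b 1, 10, 3 and 2. Ighg1 led 2, 1, 2 and 1, Ighm, the constant gene of IgM, 0, 1, 2 and 2, and Ighg3 1 cell of sample 2. λ cells were 14.3, 6.27, 15.1 and 11.4% of Igha-led cells and 0 of 4, 0 of 14, 0 of 16 and 0 of 14 of the others. The exact upper limits of the latter were 60.2, 23.2, 20.6 and 23.2%, so within single samples a lower λ share outside IgA could not be told. Pooled over the samples, λ cells were 43 of 483 Igha-led cells (8.90%, exact interval 6.52 to 11.8%). They were 0 of 48 others (upper limit 7.40%), and this difference was not tested.

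B cells differed from plasma cells in 2 measured ways, in the makeup of λ and in how cleanly κ and λ separated. B cell-like cells numbered 2701, 2589, 332 and 451. Their Igkc stood at 2185, 2911, 1522 and 1359 CPM, Iglc2 at 188, 196, 120 and 126 CPM, Iglc3 at 45.9, 51.1, 49.6 and 38.1 CPM and Iglc1 at 42.6, 84.0, 28.0 and 33.9 CPM. λ was 11.2, 10.2, 11.5 and 12.7% of their constant UMIs. Iglc2 was the highest λ constant of B cells in all 4 samples, with 67.9, 59.2, 60.6 and 63.6% of λ UMIs, and Iglc1 held 15.4, 25.4, 14.2 and 17.1%. In plasma cells of the same samples Iglc1 held the largest part of λ, so the order of Iglc1 and Iglc2 was turned in 4 of 4 samples. The plasma cell side rests on few cells, 5, 11, 5 and 3 led by Iglc1 and 2, 9, 1 and 1 by Iglc2. In sample 2 Iglc1 had 42375 UMIs against 38969 of Iglc2, and 1 cell held 8270 of the Iglc1 UMIs, more than the gap. In sample 4 Iglc1 had 10204 UMIs against 5198 of Iglc2, and 1 cell held 7081 of the Iglc1 UMIs, again more than the gap.

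In single B cells the λ UMIs were spread thinly. Cells with at least 10 constant UMIs numbered 1643, 1483, 84 and 94. Of these, 10, 1, 0 and 1 were λ at 90% or more, 1018, 922, 39 and 65 were κ, and 615, 560, 45 and 28 lay between. Those between made up 37.4, 37.8, 53.6 and 29.8%, whereas in plasma cells only 4 cells of 1 sample did. The median B cell held 11, 10, 4 and 4 Igkc UMIs, far below a plasma cell, and the part of this depth in the calls was not tested. A majority of λ was seen in 22, 16, 2 and 3 of the B cells with at least 10 constant UMIs, or 1.34, 1.08, 2.38 and 3.19%.

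UMIs were also summed over B cells split by which chain had more UMIs, with no minimum count. B cells with more λ than κ UMIs numbered 82, 44, 11 and 19, most of them with under 10 constant UMIs, so this split also rests on few UMIs per cell. They held 13.6, 7.15, 14.2 and 25.1% of the class's λ UMIs, and the rest lay in cells with at least as many κ UMIs. In the latter, λ constants were at 110, 106, 112 and 110 UMIs per 1000 Igkc UMIs, of which Iglc2 gave 76.7, 64.4, 66.1 and 73.3. In κ plasma cells the figure was 6.26, 5.88, 5.38 and 8.52, of which Iglc2 gave 3.39, 3.17, 3.05 and 2.75. The ratio thus stood over 10 times higher in κ-leading B cells than in κ plasma cells in every sample, though the call of a κ plasma cell itself limits its λ to 10% of constant UMIs. Cells with at least 10 λ UMIs numbered 47, 44, 1 and 1, with a median of 27, 35, 13 and 0 Igkc UMIs, and whether those with both are single cells was not tested. An antisense gene, 2010309G21Rik, spans Iglc1, Iglc3 and Iglv1 at chr16:19051367-19106749 on the plus strand and held 295, 323, 23 and 37 UMIs in B cells and 27, 81, 43 and 12 in plasma cells. The sources used here do not state whether counting used strand, so reads of the 2 strands may not be separated.

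Outside the antibody-producing cells, the order of classes was that of a sharp drop followed by overlap. Plasma cells held 85.9, 88.8, 93.2 and 92.5% of a sample's light-chain constant UMIs and B cells 7.91, 2.29, 0.643 and 1.38%. Among classes with at least 50 cells in a sample, Igkc ranged over samples from 147531 to 239148 CPM in plasma cells and from 1359 to 2911 CPM in B cells. Mast cell-like cells could be read only in sample 2, at 1227 CPM, below the 1491 CPM of neutrophil-like cells there. Next to B cells by median over samples came neutrophil-like cells at 134 to 1491 CPM and dendritic cell-like cells at 65.9 to 941 CPM. T, ILC and NK cell-like cells were at 148 to 1180 CPM. Epithelial-like cells ranged from 39.3 to 885 CPM, monocyte-macrophage-like cells from 52.2 to 967 CPM and fibroblast-like cells from 83.2 to 796 CPM. Endothelial-like cells, read in samples 3 and 4 alone, were at 306 and 51.0 CPM. From neutrophils to fibroblasts each class's range overlapped the next in order, and sample 2 was the highest in each class read there. Within samples some pairs of classes kept an order. Neutrophils stood above monocyte-macrophage-like cells in 4 of 4 (317 against 139, 1491 against 967, 202 against 98.8 and 134 against 52.2 CPM of Igkc). T, ILC and NK cells stood above epithelial-like cells in the 3 samples that could be read (178 against 145, 1180 against 885 and 148 against 39.3 CPM). Other pairs changed order. Neutrophils were above T, ILC and NK cells in samples 1 and 2 (317 against 178 and 1491 against 1180 CPM). They were below them in samples 3 and 4 (202 against 271 and 134 against 148 CPM). Clusters with markers of several lineages (4741 cells in all) and unnamed clusters (1376) were left out of this order, and Igkc in the latter was 979 to 4537 CPM. The neutrophil class was uneven over its clusters in λ UMIs, as given below. Iglc1 and Iglc2 fell in the same way, and in the classes from neutrophils down no class had its own range of Iglc1.

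**Figure D4:**
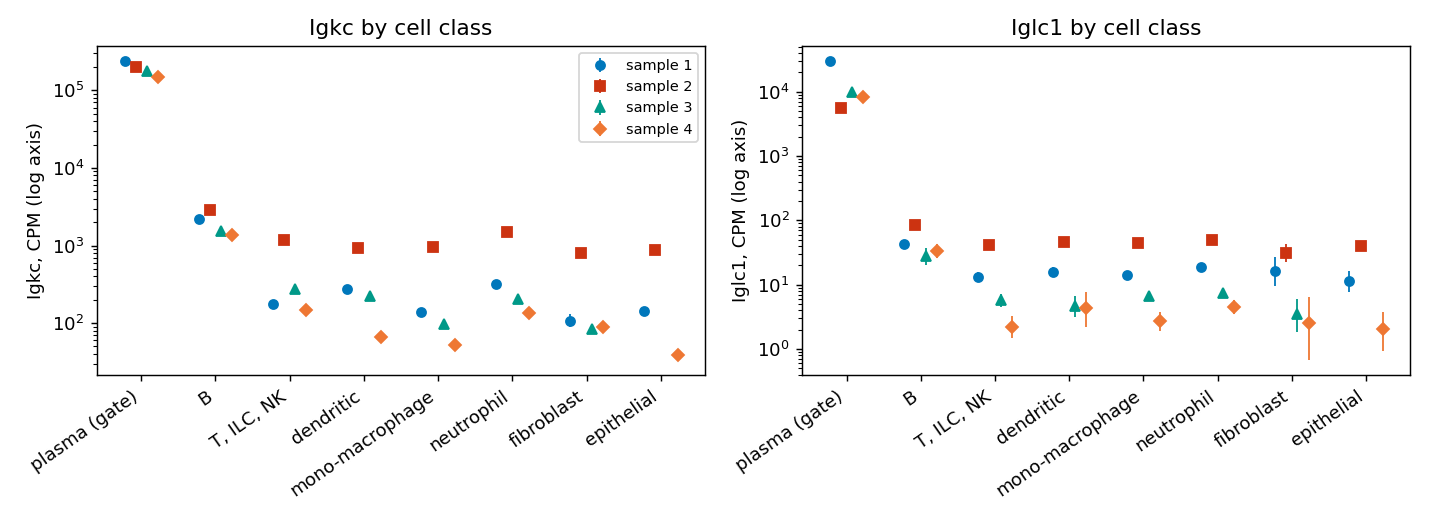
Levels of Igkc (left) and Iglc1 (right), in CPM of summed UMIs on a log axis (y), by cell class (x), with a point per sample for classes with at least 50 cells there and for the 49 plasma cells of sample 4; bars are exact 95% Poisson intervals for counting error. Plasma cells stand highest, at 147531 to 239148 CPM of Igkc and 5603 to 29808 CPM of Iglc1, B cells have the next highest Igkc of the classes drawn, and the other classes overlap.

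Macrophages carried the pattern for which the genes were picked. In monocyte-macrophage-like cells (2629, 1521, 3293 and 2083), Iglc1 was at 13.9, 44.8, 6.64 and 2.73 CPM and Igkc at 139, 967, 98.8 and 52.2 CPM. Sample 2 was the highest and sample 4 the lowest for both. The light-chain constants' share of all UMIs of a sample, 0.580, 1.74, 0.514 and 0.344%, had the same order of samples, as had the Igkc level of neutrophils. Other measures did not keep this order. All immunoglobulin genes, at 0.969, 3.05, 0.999 and 0.691% of UMIs, were highest in sample 2 with sample 3 next. So were gated plasma cells, at 0.599, 2.85, 0.875 and 0.650% of kept cells. Iglc1 in plasma cells summed to 49065, 42375, 19321 and 10204 UMIs, highest in sample 1. λ was 13.5, 7.61, 10.3 and 8.55% of the macrophages' constant UMIs, beside 13.9, 5.25, 10.4 and 7.97% in the plasma cells of the same samples.

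The Iglc1 share of λ in macrophages was nearer to that of plasma cells than to that of B cells in 4 of 4 samples. Iglc3 gave 5.30, 1.11, 29.7 and 1.52% of the macrophages' λ UMIs in samples 1 to 4. Plasma cells had 5.42, 1.61, 45.1 and 2.25% and B cells 16.6, 15.4, 25.2 and 19.3%. Its share in macrophages was thus nearer to B cells in sample 3 and to plasma cells in the others. Iglc1 gave 64.4, 56.2, 58.4 and 56.1%, above its 14.2 to 25.4% in B cells in every sample. This was not particular to macrophages. In T, ILC and NK cells Iglc1 gave 49.8, 48.9, 51.1 and 30.1% of λ UMIs. In fibroblasts it gave 61.5, 50.6, 36.1 and 57.1%, from 26, 81, 36 and 7 λ UMIs. Igha, which macrophages do not make, stood at 53.9, 65.6, 105 and 74.6 UMIs per 100 Igkc UMIs in macrophages, nearer to the 47.4, 54.2, 68.9 and 67.5 of plasma cells than to the 3.18, 21.0, 22.9 and 3.27 of B cells. Ighm lay between plasma cells and B cells, at 26.7, 8.21, 6.31 and 25.6 UMIs per 100 Igkc UMIs in macrophages. In every sample this was above the 0.0793, 0.130, 1.64 and 4.47 of plasma cells and below the 61.4, 45.4, 83.6 and 83.2 of B cells. These are ratios of summed UMIs in single samples and carry no test.

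A UMI of Igkc was found in 66.6, 98.7, 49.3 and 25.6% of macrophages, at median depths of 8930, 6204, 6698 and 5870 UMIs, and in 14.8, 59.9, 10.5 and 6.06% after thinning each cell to 1000 UMIs. Fibroblasts, which should lack the gene, had it in 61.4, 99.1, 46.6 and 24.3%, or 6.25, 57.5, 12.0 and 3.93% thinned, at median depths of 11801.5, 10788.5, 7628 and 7486 UMIs. All 4 macrophage shares lay inside the exact intervals of the fibroblasts, thinned or not. The thinned interval of sample 1 was wide, at 1.73 to 15.2% from 64 cells. So neither expression of Igkc by macrophages nor its lack is read from these shares. For Iglc1 the shares were 12.0, 25.4, 4.89 and 1.78% of macrophages (1.71, 5.60, 0.790 and 0.433% thinned) and 22.9, 32.1, 3.06 and 1.66% of fibroblasts (3.13, 4.72, 0.240 and 0.562% thinned). The fibroblast intervals of Iglc1 were wide, at 13.7 to 34.4, 23.3 to 41.8, 1.64 to 5.17 and 0.343 to 4.77%. The macrophage shares of Iglc1 lay below or inside these intervals in all 4 samples, and no expression of Iglc1 by macrophages is read from them either. The origin of these UMIs was not tested.

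A single cell could overturn the order of samples. Sample 4 held 1 gated plasma cell whose cluster was monocyte-macrophage-like, with 2212 UMIs of Iglc1, 1 of Iglc3 and none of Igkc or Iglc2. It had 2859 Igha, 886 Jchain and 23 Xbp1 UMIs beside 43 C1qa, 35 C1qc and 162 Ly6c2 UMIs of the macrophage lineage, among 25204 UMIs and 4616 genes. Of plasma cell markers, Prdm1 had 6 and Edem1 20 UMIs, and Mzb1, Derl3, Tnfrsf17, Irf4 and Fkbp11 had 0. With that cell counted among the macrophages, Iglc1 in sample 4 was 166 CPM (exact Poisson interval 159 to 173), the highest of the samples. Without it, the level was 2.73 CPM (1.93 to 3.77), the lowest. Samples 1 to 3 had no such cell and kept their values. Whether it is a droplet with 2 cells was not tested.

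**Figure D5:**
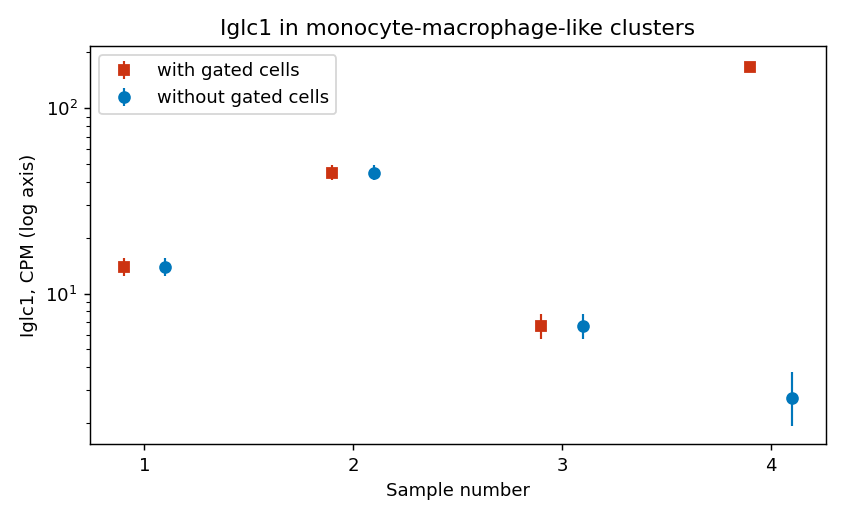
Iglc1 level (CPM of summed UMIs, log scale, y axis) in monocyte-macrophage-like cells of each sample (x axis), with and without gated plasma cells that fell in these clusters; bars are exact 95% Poisson intervals for counting error. Sample 4 is at 166 CPM with its 1 gated cell and at 2.73 CPM without it, and samples 1 to 3 do not move.

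Other classes shared this dependence on few cells. Leaving out gated cells moved Igkc of neutrophil-like cells from 477 to 202 CPM in sample 3, where the richest gated cell held 4431 Igkc UMIs, and from 594 to 134 CPM in sample 4, where 2 held 3064 and 3044. In T, ILC and NK cell-like cells Igkc went from 1519 to 1180 CPM in sample 2 and from 331 to 148 CPM in sample 4, and in dendritic cell-like cells from 4306 to 941 CPM in sample 2 and from 440 to 224 CPM in sample 3. Cells outside the gate carried much of what was left. Among T, ILC and NK cells, 1 cell held 853 of the 1849 remaining Igkc UMIs in sample 4 and another 1269 of 3421 in sample 3, and the richest 1% of cells held 58.7 and 67.1% of the constant UMIs of the class in these samples. Neutrophils also carried B cell transcripts, with a summed level of the 14 B cell markers of 994, 3408, 412 and 650 CPM. It was 165, 405, 64.3 and 108 CPM in macrophages and 669, 807, 213 and 478 CPM in T, ILC and NK cells. Dendritic cells had 634, 1320, 95.8 and 254 CPM. All 14 markers were detected in neutrophils, but also in macrophages and in T, ILC and NK cells of every sample. Neutrophil-like clusters differed in λ UMIs, over the 4 samples together. A cluster of 1505 cells held 1048 λ UMIs, with Iglc1, Iglc2 and Iglc3 at 28.2, 56.1 and 15.6%. Clusters of 5004 and 679 cells held 472 and 67, with Iglc1 at 60.4 and 61.2%. Igkc of all neutrophils without gated cells was 317, 1491, 202 and 134 CPM, and the part of B cell RNA in it was not tested.

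Iglc3 had a further location, noticed after its values were seen. In a dendritic cell-like cluster led by Siglech, a surface receptor known from plasmacytoid dendritic cells, 69, 65, 42 and 23 cells held 174 of 190, 113 of 126, 50 of 70 and 46 of 47 Iglc3 UMIs of all dendritic cell-like cells. That is 91.6, 89.7, 71.4 and 97.9%. Iglc3 stood at 148, 113, 94.4 and 174 CPM in this cluster against 2.64, 3.93, 3.43 and 0.398 CPM in the other dendritic cell-like clusters (415, 328, 576 and 252 cells). The level was above that of B cells, 38.1 to 51.1 CPM, in 4 of 4 samples. Iglc2 was also higher in this cluster in 4 of 4 samples, at 42.6, 79.1, 28.3 and 22.7 CPM against 8.09, 34.5, 1.37 and 3.98 CPM. It had 50, 79, 15 and 6 UMIs there, beside the 174, 113, 50 and 46 of Iglc3. In Iglc3-led plasma cells, Iglc2 gave a median of 5.61 and at most 42.0 of 1000 constant UMIs. Reads of the pair may not be fully separated, and their part in the cluster's Iglc2 UMIs was not tested.

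The UMIs were spread over many of its cells. A UMI of Iglc3 was found in 65.2, 67.7, 52.4 and 69.6% of the Siglech-led cells, or 18.8, 12.3, 7.14 and 13.0% thinned, against 3.86, 3.35, 3.30 and 0.397% of the other dendritic cell-like cells, or 0.243, 1.56, 0.712 and 0% thinned. The median depth of the former was 12426, 11358, 11323 and 9894 UMIs, and the richest cell held 11, 9, 6 and 6. Iglc3 gave 70.2, 47.7, 74.6 and 85.2% of the cluster's λ UMIs, compared with 1.61 to 45.1% in plasma cells and 15.4 to 25.2% in B cells, while Iglc1 gave 9.68, 19.0, 2.99 and 3.70%. Iglv1 had 2, 1, 0 and 0 UMIs there. Because this cluster was singled out for its Iglc3, these values are a description, and sample 4 and sample 3 rest on 23 and 42 cells.

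The genes around light-chain assembly were mostly silent or low. Rag1 and Rag2, the recombinase, and Igll1 and Vpreb2, parts of the surrogate light chain of B cell precursors, had 0 UMIs in plasma cells and in B cells of all 4 samples, which for Rag1 allows up to 0.488 to 2.99 CPM in plasma cells (exact Poisson upper limits). Vpreb1 had 2, 2, 0 and 0 UMIs in plasma cells. Vpreb3, a chaperone of the early B cell receptor, was at 76.5, 92.4, 43.7 and 69.0 CPM in plasma cells. In B cells it was at 137, 162, 70.6 and 95.9 CPM. Immunoglobulin UMIs lower the CPM of other genes in plasma cells, and Vpreb3 was not compared without them. Mzb1, which helps antibody assembly in the endoplasmic reticulum, stood at 1441, 1062, 474 and 658 CPM in plasma cells. Cd79a, a signalling chain of the B cell receptor, was lower in plasma cells (357, 433, 254 and 189 CPM) than in B cells (1178, 1214, 764 and 650 CPM). Pigr, the epithelial receptor that carries IgA, was at 550, 1106 and 1705 CPM in epithelial-like cells of samples 1, 2 and 4, the samples with at least 50 such cells.

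Genes outside the immunoglobulin loci were ranked by likeness to Igkc and Iglc1 over 33 sums of a class in a sample, with Pearson's r of log2(CPM + 1) over 7863 genes. Closest to Igkc were Jchain with an r of 0.944, Mzb1 with 0.931 and Gm30211 with 0.901, and closest to Iglc1 were Jchain with 0.955, Mzb1 with 0.921 and Tnfrsf17 with 0.920, which encodes a receptor for plasma cell survival signals. Igkc and Iglc1 had an r of 0.968 with each other. The 33 sums share libraries and cell classes, the plasma cells were gated on Jchain, and the values are a description of these sums.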

How the data were processed

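Colonic lamina propria cells of 4 samples were measured by single-cell RNA sequencing. The files deposited by the authors hold UMI counts that were not normalized, for the cells that Cell Ranger called. The matrix headers name version 7.0.1, while the submitters' processing notes name Cell Ranger 5.0.0, STAR, Seurat and mm10. How multi-mapped reads were split, and whether strand was used, is not given in the sources used here.

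Cells with at least 200 genes and under 20% mitochondrial UMIs were kept. The highest scores against simulated doublets were removed, at 0.8% of cells per 1000 cells. Cells were clustered without immunoglobulin genes and Jchain on 2000 variable genes, 30 principal components and 15 neighbours at Leiden resolution 1.0, which gave 34 clusters. A cluster was named "X-like" from the marker list with the highest mean z-score and at least 3 raised markers. The naming rule, including clusters left mixed or unnamed, was written after clusters were seen. Gated plasma cells were left out of every other class, a choice also made after values were seen.

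A level, in CPM, is a gene's UMIs summed over a class and scaled by all UMIs of that class. Its 95% interval is exact Poisson and that of a share exact binomial, and these reflect counting error alone. The depth of 72509408 to 135516016 UMIs per sample and the number of plasma cells, 49 to 337, set the precision. Calls used 10 constant UMIs and 90%. Detection was repeated after thinning cells to 1000 UMIs, leaving out shallower cells, per sample 14 to 122 B cells, 0 to 4 macrophages and 0 to 9 fibroblasts. Classes needed 50 cells in a sample to be read, except the 49 plasma cells of sample 4 and the Siglech-led cluster.

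The genes, lists and tests were chosen with earlier results of these data known. Named genes are the 5 members, the other Iglv genes, the 3 leading Igkv genes of each sample, heavy-chain constant genes, genes of light-chain assembly and transport, and the 3 genes most like Igkc and Iglc1. Likeness used genes with at least 50 CPM in a sum. The gated cell in a macrophage cluster, the Siglech-led cluster and the antisense gene were named after their values were seen. Since the labels put no sample in a group, no test between samples was run. Scripts were tested on simulated data. Tools were Python 3.11.15, numpy 2.4.6, scipy 1.17.1, pandas 2.3.3, scikit-learn 1.9.0, leidenalg 0.10.2, matplotlib 3.10.9 and biopython 1.88.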

Additional observations from a re-analysis of the deposited data

How the results depend on the processing

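Values here are medians over the 4 samples. The λ share of called plasma cells (10.3%) moved by less than its counting interval under every alternative run. The median share with both chains (0) cannot show stability, since all 4 such cells were in sample 2, where the share of 1.19% ranged from 0.361% with the stricter gate to 5.68% with the looser gate. With a looser gate (Jchain from 10 and Xbp1 from 3 UMIs), λ was 9.05% of the constant UMIs of plasma cells, against 9.18%, and plasma cells held 91.6% of a sample's constant UMIs, against 90.7%. With a stricter gate (Jchain from 50 and Xbp1 from 10) these were 9.40 and 84.5%, and the Iglc1 share of λ in plasma cells was 59.4%, against 58.0%. With only gated cells in B cell-like or plasma cell-like clusters the values were 8.94, 83.2 and 53.6%, and with doublets left in they were 8.75, 91.0 and 59.3%. Plasma cells held 90.9% with mitochondrial UMIs under 10% and 90.9% with at least 500 genes. The λ share of plasma cell UMIs was 9.74% with variable genes added and 0.538% as a median over cells, since the median cell is a κ cell. λ-dominant B cells, 0.541% of called B cells, were 0 with calls from 50 UMIs and 0 with classes by marker UMIs per cell.

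In monocyte-macrophage-like cells, classes by marker UMIs gave 13.7 CPM of Iglc1, against 10.3, and a λ share of 12.7%, against 9.43%. Gated cells kept in their clusters, an alternative added after seeing the data, gave 29.3 CPM and 11.9%. The Igkc level of neutrophil-like cells was 260 CPM in the main setting, 184 with doublets left in, 154 at Leiden resolution 2.0, 1118 with classes by marker UMIs, 169 without the 1% of cells richest in light chains and 536 with gated cells kept. The cause of these shifts was not tested.

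No paired analysis was possible because the labels put no sample in a group. The counts of λ plasma cells, 4 to 20 per sample, limit every statement on λ, and the split of reads between Iglc2 and Iglc3 is uncertain. Each sample mixes 3 mice and has no replicate, so no value here separates mice, samples and genotypes.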
